A study of Mus musculus with 18 samples.

Results

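Transcripts of 10 guanylate-binding protein (GBP) genes were examined in mouse spinal cord, in the dorsal horn on the injected side (ipsilateral DHSC). The genes were *Gbp2*, *Gbp3*, *Gbp4*, *Gbp5*, *Gbp6*, *Gbp7*, *Gbp8*, *Gbp9*, *Gbp10* and *Gbp11*, found by symbol among the 55573 genes counted, and all 10 were present. The family was selected because *Gbp10* differed between the female groups, so values for that contrast are described here and not tested. All animals were adult C57BL/6J mice of 8 to 12 weeks that received 2% formalin in 1 hind paw, an inflammatory pain model, and the DHSC was collected 2 h later. RNA-sequencing covered 6 mice of each of 3 groups, namely males, females called F1/proestrus and females called F2/metestrus. F1 and F2 name subgroups of females that differed in their behavioral response to formalin, and proestrus and metestrus were read from vaginal smears, so behavior and cycle stage cannot be told apart within the females. Every group carried the formalin injection and no uninjected DHSC was sequenced, so a steady-state level cannot be told apart from a level reached after formalin.

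GBPs are large GTPases of the dynamin superfamily whose genes are switched on by interferons, above all by interferon gamma (IFN-γ). They bind and hydrolyse GTP, assemble on the membranes of intracellular vacuoles and bacteria, and take part in killing the microbes inside and in triggering inflammasomes. Their promoters are known for 2 kinds of element, the interferon-stimulated response element (ISRE) and the gamma-activated site (GAS).

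The members lie in 2 clusters (GENCODE vM21, GRCm38). On the plus strand of chromosome 3 stand *Gbp5* (chr3:142493978-142522344), *Gbp7* (chr3:142530342-142550149), *Gbp3* (chr3:142560026-142573209) and *Gbp2* (chr3:142620602-142638008). On the minus strand of chromosome 5 stand *Gbp8* (chr5:105014150-105139540), *Gbp9* (chr5:105077630-105139539), *Gbp4* (chr5:105115767-105139586), *Gbp10* (chr5:105215699-105239533), *Gbp6* (chr5:105270702-105293698) and *Gbp11* (chr5:105323042-105346472). *Gbp11* is annotated as a polymorphic pseudogene and the other 9 as protein-coding.

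**Figure D1:**
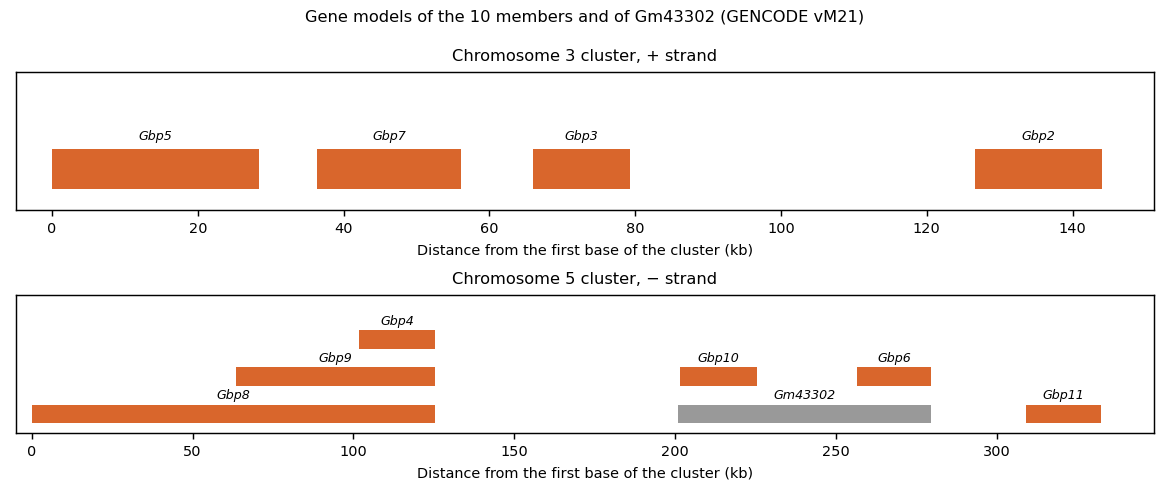
The horizontal axis gives the distance in kb from the first base of each cluster, each orange bar is a member and the grey bar is *Gm43302*. *Gbp8*, *Gbp9* and *Gbp4* overlap and, being on the minus strand, start at nearly the same base on the right of their bars. *Gm43302* spans both *Gbp10* and *Gbp6*.

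How far the counts of single members can be told apart differed between them. *Gm43302*, a protein-coding gene model on the same strand (chr5:105214907-105293695), shares 1792 exon bases with *Gbp10*, 46.3% of the exon bases of *Gbp10*, and 1726 with *Gbp6*, 29.0% of its exon bases. Of all runs of 50 bases in the longest coding transcript, 82.5% of those of *Gbp10* and 90.2% of those of *Gbp6* also occur in the transcripts of another gene, mostly *Gm43302*. The values of *Gbp10* and *Gbp6* are therefore uncertain as levels of these genes alone. The same share was 21.2% for *Gbp8*, 19.2% for *Gbp11*, 12.8% for *Gbp7* and *Gbp4*, 9.6% for *Gbp9*, 4.8% for *Gbp3*, 2.1% for *Gbp2* and 0.9% for *Gbp5*. Exon bases were also shared by *Gbp7* with the processed pseudogene *Gm43802* (637 bases), by *Gbp2* with the antisense *Mir6381* (24 bases), and by *Gbp8*, *Gbp9* and *Gbp4* with each other (60 or 61 bases). Whether the counting used the strand is not given in the sources used here.

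The promoters of the chromosome 3 members are shown because *Gbp2*, *Gbp3* and *Gbp7* had the highest levels of the family and were high in the same F2/metestrus samples, and *Gbp5* is their neighbour. Each line gives the plus strand of GRCm38.p6 from 250 bases before to 50 bases after the RefSeq start. Capitals mark a core ISRE, searched on both strands as 2 half-sites GAAA with 2 free bases between them (it appears here as half-sites TTTC), and a GAS, searched as TTCNNNGAA, which reads alike on both strands.
Gbp5: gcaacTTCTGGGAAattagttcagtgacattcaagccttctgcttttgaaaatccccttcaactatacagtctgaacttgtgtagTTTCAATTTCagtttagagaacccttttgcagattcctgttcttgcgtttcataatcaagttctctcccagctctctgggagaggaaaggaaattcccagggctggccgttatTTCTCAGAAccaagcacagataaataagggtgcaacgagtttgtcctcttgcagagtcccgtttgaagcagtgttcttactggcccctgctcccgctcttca
Gbp7: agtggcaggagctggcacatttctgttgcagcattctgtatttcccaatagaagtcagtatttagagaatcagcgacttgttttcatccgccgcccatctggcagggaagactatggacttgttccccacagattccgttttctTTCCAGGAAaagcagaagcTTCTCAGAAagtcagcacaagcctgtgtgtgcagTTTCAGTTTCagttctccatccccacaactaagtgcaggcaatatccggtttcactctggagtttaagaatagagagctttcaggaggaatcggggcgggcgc
Gbp3: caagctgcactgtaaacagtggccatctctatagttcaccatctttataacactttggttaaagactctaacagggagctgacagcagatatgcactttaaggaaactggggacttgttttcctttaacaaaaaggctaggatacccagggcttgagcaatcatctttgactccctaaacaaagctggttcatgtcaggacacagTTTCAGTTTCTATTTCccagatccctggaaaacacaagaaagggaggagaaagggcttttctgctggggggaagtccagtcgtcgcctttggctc
Gbp2: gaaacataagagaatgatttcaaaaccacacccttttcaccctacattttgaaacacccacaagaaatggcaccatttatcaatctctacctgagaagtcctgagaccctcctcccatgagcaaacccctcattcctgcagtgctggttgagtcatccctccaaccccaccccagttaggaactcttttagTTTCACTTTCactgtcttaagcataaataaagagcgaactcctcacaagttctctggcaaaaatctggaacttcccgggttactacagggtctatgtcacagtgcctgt

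The windows are chr3:142496684-142496983 for *Gbp5*, chr3:142530086-142530385 for *Gbp7*, chr3:142559794-142560093 for *Gbp3* and chr3:142620413-142620712 for *Gbp2*. The ISRE letters stood 165 to 156 bases before the start in *Gbp5*, 53 to 44 in *Gbp7*, and 59 to 50 in *Gbp2*. In *Gbp3* 2 overlapping matches ran from 45 to 36 and from 39 to 30 bases before the start, and a second RefSeq window of *Gbp3* (chr3:142560106-142560405) held neither motif. GAS letters were found at 245 to 237 and 52 to 44 bases before the start of *Gbp5* and at 106 to 98 and 87 to 79 before that of *Gbp7*. Over all 32851 promoter windows in the RefSeq table, 3.44% held the ISRE letters, 8.3% the GAS letters and 0.454% both. A match of letters is a description of the window and does not show that a factor binds there. *Gbp4*, *Gbp6*, *Gbp8*, *Gbp9*, *Gbp10* and *Gbp11* were not matched in that table.

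Between 73590509 and 125724156 counts were assigned to genes in each sample, and levels are given as CPM, counts scaled to the library size with TMM factors. At this depth 3 counts, the upper limit that a count of 0 allows, corresponded to 0.024 to 0.0407 CPM, a limit that covers counting error only. The tissue label was checked against fixed marker lists: summed neuronal markers (*Snap25*, *Syt1*, *Rbfox3*, *Slc17a6*, *Slc32a1*) ranged from 3860 to 4770 CPM and dorsal horn neuron markers (*Lmx1b*, *Tlx3*, *Pax2*, *Lbx1*, *Tac1*, *Grp*) from 65.9 to 122 CPM. Motor neuron markers (*Chat*, *Slc5a7*, *Mnx1*, *Isl1*), which mark the ventral horn, ranged from 12.1 to 71.4 CPM, and Schwann cell markers from 1220 to 4480 CPM, where male 5 was the highest and the other 17 samples had at most 2640 CPM. The sample F1/proestrus 5 stood apart with 685 CPM of dorsal root ganglion neuron markers against 13.3 to 90.1 CPM in the other 17 samples. Without it the median log2 difference of the members other than *Gbp10* was 0.95 between the female groups and -1.01 between the sexes. The F2/metestrus samples 2, 4 and 5 stood apart in the members themselves. Differences of the members between the female groups are given with and without them. Between the sexes this was done for the median of the members other than *Gbp10* and for *Gbp10*. Contrasts of the other gene lists and of the marker lists are not given without all 3. The total counts of F2/metestrus 2, 4 and 5 were 103900023, 94152624 and 78112384.

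Compared per kb of exon, which allows levels of different genes to be set side by side, *Gbp2* had the highest mean level over the 18 samples at 3.62 ± 4.11 CPM per kb (SD, n = 18). *Gbp3* followed at 2.80 ± 1.67 and *Gbp7* at 1.78 ± 0.933. *Gbp9* stood at 0.616 ± 0.195, *Gbp6* at 0.367 ± 0.288, *Gbp11* at 0.348 ± 0.108, *Gbp4* at 0.326 ± 0.44 and *Gbp5* at 0.273 ± 0.161 CPM per kb. *Gbp10* and *Gbp8* were the lowest, at 0.095 ± 0.167 and 0.0557 ± 0.0464. The steps from *Gbp3* to *Gbp7* and from *Gbp7* to *Gbp9* were kept in 18 of 18 samples, those from *Gbp9* to *Gbp6* and from *Gbp5* to *Gbp10* in 17 of 18, and that from *Gbp11* to *Gbp4* in 15 of 18. *Gbp2* was above *Gbp3* in only 9 of 18 samples, *Gbp6* above *Gbp11* in 8, *Gbp4* above *Gbp5* in 6 and *Gbp10* above *Gbp8* in 8, so these neighbours could not be ordered.

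*Gbp10*, 1 of the members described as protecting macrophages against intracellular bacteria, was close to the detection limit in males and F1/proestrus females. Its level ran from 0 to 0.162 CPM with a median of 0.0908 in males (0 to 18 counts) and from 0.0364 to 0.131 CPM with a median of 0.0878 in F1/proestrus females (4 to 15 counts). The male sample at 0 counts allows up to 0.0407 CPM. In F2/metestrus females the 6 samples, numbered 1 to 6, had 0.223, 0.961, 0.198, 2.20, 1.89 and 0.130 CPM of *Gbp10*. Samples 2, 4 and 5 were far above every other sample, samples 1 and 3 were just above the highest F1/proestrus sample, and sample 6 lay within the F1/proestrus range. *Gbp10* chose the family, and its log2 difference of 3.40 (SE 0.690), F2/metestrus minus F1/proestrus, or 10.6-fold, is a description. With samples 2, 4 and 5 left out it was 1.08 (SE 0.410).

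*Gbp2*, which coats the vacuole of *Toxoplasma* in infected cells, was evenly expressed outside the same 3 samples. It ranged from 3.99 to 6.18 CPM (median 4.68) in males and from 4.21 to 6.51 CPM (median 5.56) in F1/proestrus females. The F2/metestrus samples 1 to 6 had 5.15, 24.5, 6.49, 13.9, 45.6 and 6.31 CPM, so that samples 1, 3 and 6 lay within the range of the other groups. The group means were 5.35 ± 0.894 CPM in F1/proestrus, 17.0 ± 15.8 in F2/metestrus and 4.96 ± 0.942 in males (SD, n = 6 each). The log2 difference between the female groups was 1.66 (SE 0.454), and 0.16 (SE 0.148) with samples 2, 4 and 5 left out.

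*Gbp3* and *Gbp7* showed the same arrangement at a smaller size. *Gbp3* had 7.33 ± 1.25 CPM in F1/proestrus, 14.2 ± 7.09 in F2/metestrus and 5.87 ± 0.954 in males, and its F2/metestrus samples 2, 4 and 5 had 15.5, 18.9 and 25.5 CPM against at most 9.62 in any other sample. *Gbp7*, which is linked to the NADPH oxidase in macrophages, had 8.09 ± 1.23, 14.4 ± 7.46 and 7.45 ± 0.704 CPM in the same order. Its values in F2/metestrus 2, 4 and 5 were 15.4, 20.1 and 26.0 CPM against at most 9.69 elsewhere. The log2 differences between the female groups, 0.95 (SE 0.257) for *Gbp3* and 0.83 (SE 0.264) for *Gbp7*, were 0.21 (SE 0.136) and 0.04 (SE 0.125) without those samples.

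*Gbp5*, which promotes assembly of the NLRP3 inflammasome, separated these samples less well. It ranged from 0.743 to 2.93 CPM in F1/proestrus, from 1.49 to 4.70 in F2/metestrus and from 0.866 to 1.46 in males, with means of 1.54 ± 0.816, 2.78 ± 1.18 and 1.12 ± 0.233. F1/proestrus 2, at 2.93 CPM, was above F2/metestrus 5, at 2.42 CPM. The log2 difference between the female groups was 0.84 (SE 0.329), and 0.35 (SE 0.366) with F2/metestrus 2, 4 and 5 left out.

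Among the chromosome 5 members, *Gbp4*, described as a negative regulator of IRF7, was highest in a single sample. F2/metestrus 4 had 15.2 CPM, while F2/metestrus 5 had 4.59, F2/metestrus 2 had 2.83 and the other 15 samples at most 2.22 CPM. Its means were 1.5 ± 0.448 CPM in F1/proestrus, 4.67 ± 5.25 in F2/metestrus and 1.15 ± 0.373 in males. The log2 difference between the female groups was 1.62 (SE 0.498). It was 0.76 without F2/metestrus 4, and 0.28 (SE 0.241) without F2/metestrus 2, 4 and 5.

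*Gbp6* exceeded 2 CPM only in F2/metestrus 2, 4 and 5, at 4.33, 3.96 and 8.04 CPM. Its means were 1.66 ± 0.389, 3.60 ± 2.48 and 1.3 ± 0.163 CPM in F1/proestrus, F2/metestrus and males, and the log2 difference between the female groups, 1.11 (SE 0.351), was 0.08 (SE 0.199) without the 3 samples. *Gm43302*, whose model overlaps *Gbp6* and *Gbp10*, had 2.63, 3.30 and 4.54 CPM in the same 3 samples and at most 0.979 CPM in the others.

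*Gbp9* had the smallest relative spread over the 18 samples of the 8 members in which these samples stood on top, with a highest value 2.88 times the lowest. It had 3.02 ± 0.494 CPM in F1/proestrus, 4.19 ± 0.996 in F2/metestrus and 2.35 ± 0.399 in males, with 4.04, 5.39 and 5.44 CPM in F2/metestrus 2, 4 and 5 against at most 3.83 CPM elsewhere. *Gbp8* had 0.105 ± 0.0586, 0.359 ± 0.174 and 0.112 ± 0.0526 CPM and at most 53 counts in any sample. F1/proestrus 6 had 2 counts of *Gbp8*, and F2/metestrus 3, at 0.287 CPM, was the highest sample outside the 3. Without F2/metestrus 2, 4 and 5 the log2 difference between the female groups went from 0.46 (SE 0.152) to 0.18 (SE 0.145) for *Gbp9* and from 1.74 (SE 0.418) to 1.06 (SE 0.486) for *Gbp8*.

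*Gbp11* did not set these samples apart. Its means were 0.823 ± 0.357 CPM in F1/proestrus, 1.05 ± 0.221 in F2/metestrus and 0.937 ± 0.280 in males, and all 3 groups overlapped widely. F2/metestrus 5 was the highest at 1.4 CPM, but 7 samples of the other 15 were at or above F2/metestrus 4, at 0.836 CPM. Its log2 difference between the female groups was 0.34 (SE 0.252), and 0.26 (SE 0.324) without F2/metestrus 2, 4 and 5. Its Spearman correlation with the mean profile of the 10 members was 0.47, against 0.77 to 0.90 for the other 9, as a description over 18 samples that share their libraries. Each member is itself part of that mean, which raises all 10 values.

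**Figure D2:**
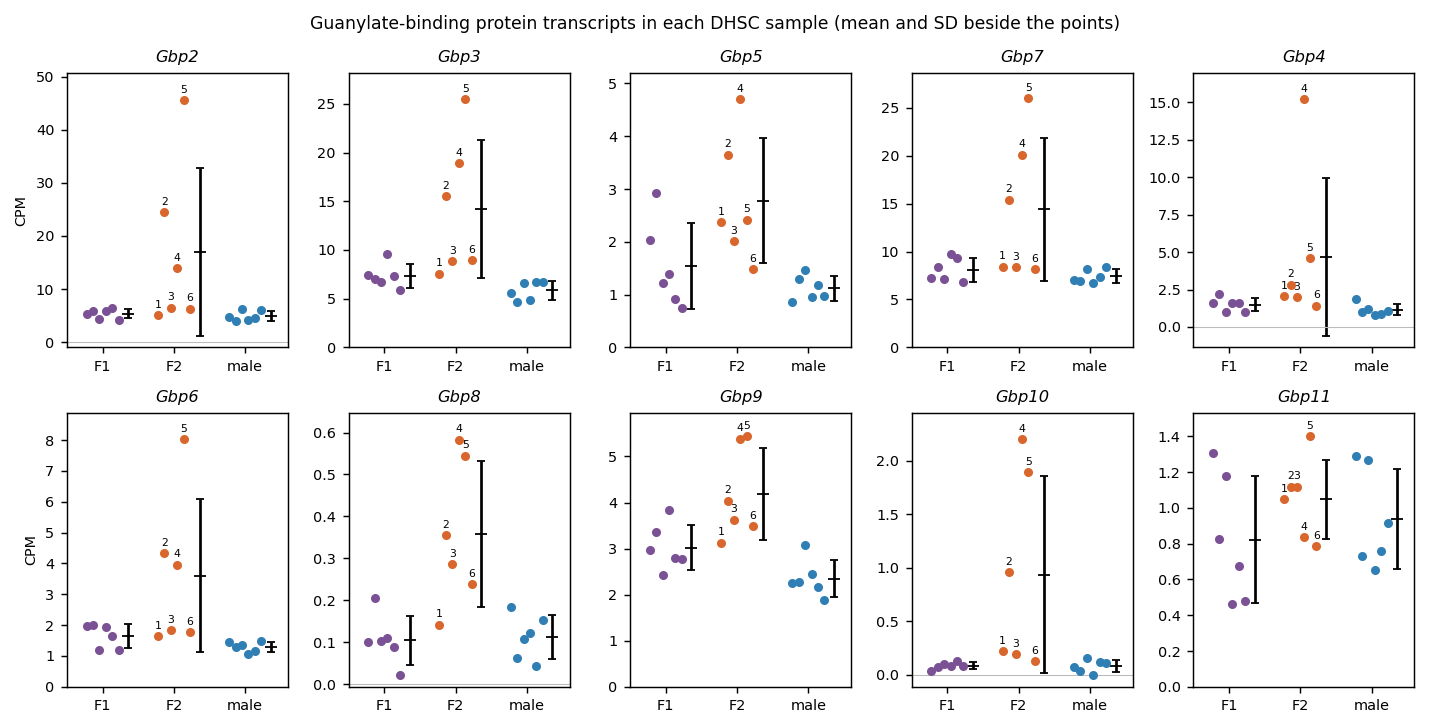
Each point is the CPM of 1 sample, the bar beside each group shows mean and SD (n = 6), and the numbers on the F2/metestrus points are the sample numbers. In 8 of the 10 genes samples 2, 4 and 5 lie above the other 15 samples, and *Gbp5* and *Gbp11* are the exceptions.

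In 8 of the 10 members F2/metestrus 2, 4 and 5 were all above the other 15 samples. Of the 24862 genes tested between the sexes, 54 had these samples on top, or 0.217%. Since the samples were singled out from the members' own values, nothing is read from the members' count. Within the family the order of the samples was not the same. F2/metestrus 5 was highest in 6 members and F2/metestrus 4 in 4 members, *Gbp4*, *Gbp5*, *Gbp8* and *Gbp10*. On the mean of the centred log2 CPM of the 10 members, F2/metestrus 5 stood at 1.67, F2/metestrus 4 at 1.54 and F2/metestrus 2 at 1.11. The remaining F2/metestrus samples stood at 0.08, 0.23 and -0.01, F1/proestrus samples between -0.77 and 0.03, and males between -0.85 and -0.14. The samples belong to both series of library numbers in the count table, sample 2 to the series 27 to 35 (replicates 1 to 3 of every group) and samples 4 and 5 to the series 188 to 196 (replicates 4 to 6).

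**Figure D3:**
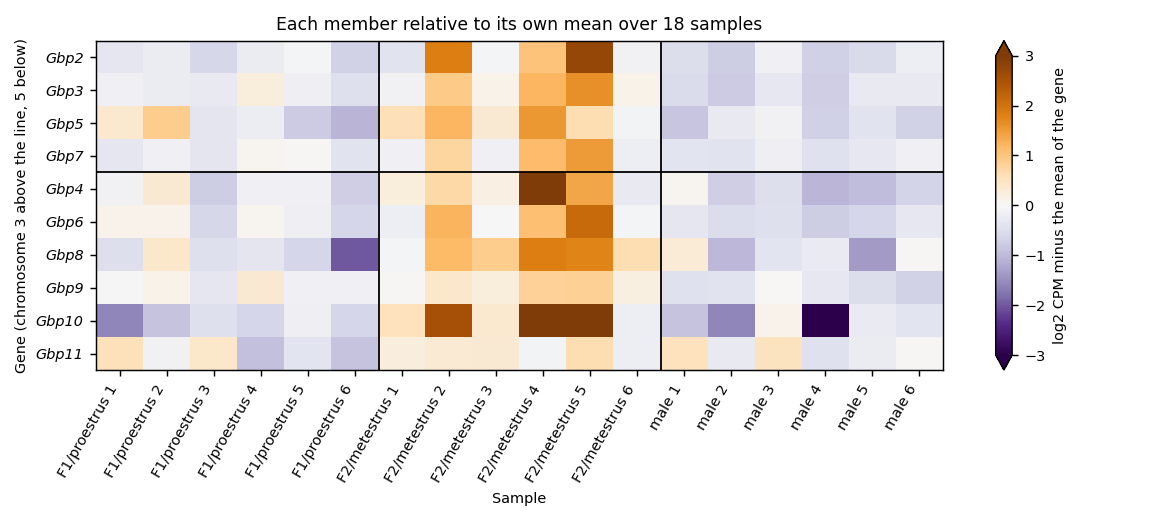
Colour gives log2 CPM of each gene in each of the 18 samples minus the mean of the gene, with chromosome 3 members above the horizontal line and groups separated by vertical lines. Orange columns stand at F2/metestrus 2, 4 and 5, and *Gbp11* is mixed there, at 0.31, -0.09 and 0.63.

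All 10 members were higher in F2/metestrus than in F1/proestrus on average, with a median log2 difference of 1.03 and a range from 0.34 for *Gbp11* to 3.40 for *Gbp10*. Over all 24042 genes tested the median was 0.0. The rule used this contrast, so nothing is read from the count. In this contrast 0.0% of genes passed the threshold with edgeR, a false discovery rate of 5%. An unadjusted p under 0.05 was found for 596 genes, and DESeq2 called 2 genes, *Xlr3a* and the gene whose difference chose the family, so that this call is no result. The values within the 2 series of libraries differed in size. In replicates 1 to 3 the log2 difference was 1.21 for *Gbp2*, 2.71 for *Gbp10*, 0.49 for *Gbp4* and -0.02 for *Gbp11*, and in replicates 4 to 6 it was 1.99, 3.74, 2.33 and 0.89. Marker lists of other cells differed in this contrast too. The median log2 difference, F2/metestrus minus F1/proestrus, was 0.54 over the 6 neutrophil markers tested, 0.47 over the 2 T or NK cell markers, 0.38 over the 4 motor neuron markers, and between -0.13 and 0.11 over the lists other than these and the dorsal root ganglion list. Over the 5 dorsal root ganglion neuron markers it was -1.83. Single samples moved these medians. Without F1/proestrus 5 the dorsal root ganglion list stood at 0.45, the neutrophil list at 0.85, the meningeal fibroblast list at 0.23 (0.04 with it) and the Schwann cell list at 0.15 (-0.02 with it). The T or NK cell list stood at 0.24 without F2/metestrus 4, and the motor neuron list at 0.21 without F1/proestrus 2 and 0.23 without F1/proestrus 6. The lists with medians between -0.13 and 0.11 ran from -0.2 to 0.23 when each sample was left out in turn. No marker was called in this contrast with edgeR, in all samples or with any 1 left out, and the part of these cells in the members' differences was not tested. With F2/metestrus 2, 4 and 5 left out, the members' median was 0.24 and the range 0.04 to 1.08, and the members are given without a p there because the samples were chosen by their values.

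The comparison of the 6 males with the 12 females asked whether the members differ between the sexes after formalin. It shares its females with the contrast that chose the family. *Gbp10* is left out of the counts below, because it passed the filter on low counts through the F2/metestrus females in which it was high. On average 8 of the other 9 members were lower in males, with a median log2 difference of -0.94 against 0.0 over all 24862 genes tested, but none passed the threshold. With edgeR's quasi-likelihood test and Benjamini-Hochberg adjustment over all genes, 0 of these 9 members were called, while 0.149% of genes were called higher in males and 0.0483% higher in females. The unadjusted p was under 0.05 for 7 of the 9 members and for 2416 genes in all. DESeq2 called 1 member, *Gbp9*, and 0.707% of the genes to which it gave an adjusted p. Markers of other cells moved in the same contrast. In males minus females the median log2 difference was 0.67 over the 4 Schwann cell markers, with *Ncmap* called (adjusted p 0.00654 in edgeR), and 1.39 over the 6 neutrophil markers tested, with *Mpo* called (adjusted p 0.0161). It was 0.23 over the 6 dorsal horn neuron markers, with *Grp* called (adjusted p 0.00539), -0.59 over the 4 motor neuron markers, and between -0.27 and 0.19 over the lists not named here. Over the 5 dorsal root ganglion neuron markers tested it was -2.07, a value that includes F1/proestrus 5, and without that sample it was -0.42 over the 4 that passed the filter. Leaving out F1/proestrus 5 also gave calls for *Mpo* and *Retnlg* of the neutrophil list and for the microglial marker *Csf1r*, with 0.311% of all genes called. *Csf1r* was called without F2/metestrus 6 as well, and *Retnlg* without F2/metestrus 3 or male 4. Without male 1 no neutrophil marker was called, and the median of the list was 1.02. *Ncmap* and *Grp* were called with each sample left out in turn. Among the lists not named above, the T or NK cell median went from -0.27 to -0.12 without F2/metestrus 4 and to -0.18 without male 6. The red blood cell median went from -0.14 to -0.69 without male 4 and to -0.22 without male 2. It shrank to -0.08 without F2/metestrus 4, -0.06 without male 1 and -0.01 without male 5, and turned to 0.02 without male 6. The monocyte or macrophage median went from 0.15 to 0.25 without male 2, but to 0.1 without F2/metestrus 6 and 0.08 without male 1. The meningeal fibroblast median went from 0.19 to 0.09 without male 3 and to 0.1 without male 5. These marker genes were named after their values were seen, and the part of these cells in the members' differences was not tested.

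*Gbp9* was the member closest to the threshold. It had 1.89, 2.27 and 3.07 CPM as lowest, median and highest value in males, and 2.43 as the lowest and 5.44 as the highest value in females, so the sexes overlapped. Its log2 difference, male minus female, was -0.62 (SE 0.159), with an adjusted p of 0.155 in edgeR and 0.0182 in DESeq2. Over all alternatives its adjusted p ran from 0.0182 to 0.76. Against F1/proestrus alone the difference was -0.38 (SE 0.135), and against F2/metestrus alone it was -0.84 (SE 0.154).

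*Gbp10* had 0.0837 ± 0.0595 CPM in males (SD, n = 6) and 0.510 ± 0.761 CPM in females (SD, n = 12), and its log2 difference of -2.53 (SE 0.916) is a description. Among the other members *Gbp4* had -1.41 (SE 0.515, adjusted p 0.375 in edgeR), *Gbp2* -1.17 (SE 0.478, adjusted p 0.431) and *Gbp6* -1.0 (SE 0.350, adjusted p 0.344). *Gbp8* had -1.0 (SE 0.500, adjusted p 0.52), *Gbp5* -0.94 (SE 0.312, adjusted p 0.323), *Gbp3* -0.87 (SE 0.277, adjusted p 0.308) and *Gbp7* -0.59 (SE 0.257, adjusted p 0.466). *Gbp11* had 0.01 (SE 0.221, adjusted p 0.996). In each member the values of the sexes overlapped. DESeq2 gave -0.77 (SE 0.257) for *Gbp4*, -0.67 (SE 0.346) for *Gbp2* and -2.0 (SE 0.812) for *Gbp10*. By default that tool replaces an outlying count before the fit, and it did so for 1 sample in each of these genes: F2/metestrus 4 in *Gbp4* (1378 counts, 140 used) and in *Gbp10* (200 counts, 11 used), and F2/metestrus 5 in *Gbp2* (3594 counts, 444 used). With no replacement, an alternative chosen after seeing the data, DESeq2 gave -1.43 (SE 0.521), -1.18 (SE 0.493) and -2.6 (SE 0.878), with no p for these 3 genes. *Gbp9* was called there too (adjusted p 0.02), and 0.569% of the genes given an adjusted p.

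The size of these differences varied with the female group used. Against the F1/proestrus females alone, 9 members passed the filter, *Gbp10* did not, and their median log2 difference was -0.33, with *Gbp2* at -0.12 (SE 0.139), *Gbp7* at -0.13 (SE 0.103), *Gbp5* at -0.47 (SE 0.287) and *Gbp8* at 0.09 (SE 0.434). Against the F2/metestrus females alone, the median over the same 9 members was -1.31, with *Gbp2* at -1.78 (SE 0.452), *Gbp4* at -2.02 (SE 0.501), and *Gbp10* stood at -3.41 (SE 0.742). No member passed the threshold in either comparison, and the smallest adjusted p with edgeR was 0.0559, for *Gbp5* and *Gbp9* against F2/metestrus. Over all genes tested, 0.0535% were called against F1/proestrus alone and 0.0915% against F2/metestrus alone. With F2/metestrus 2, 4 and 5 left out of the females, the median over the 9 members was -0.38 and *Gbp10* stood at -0.47 (SE 0.471).

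**Figure D4:**
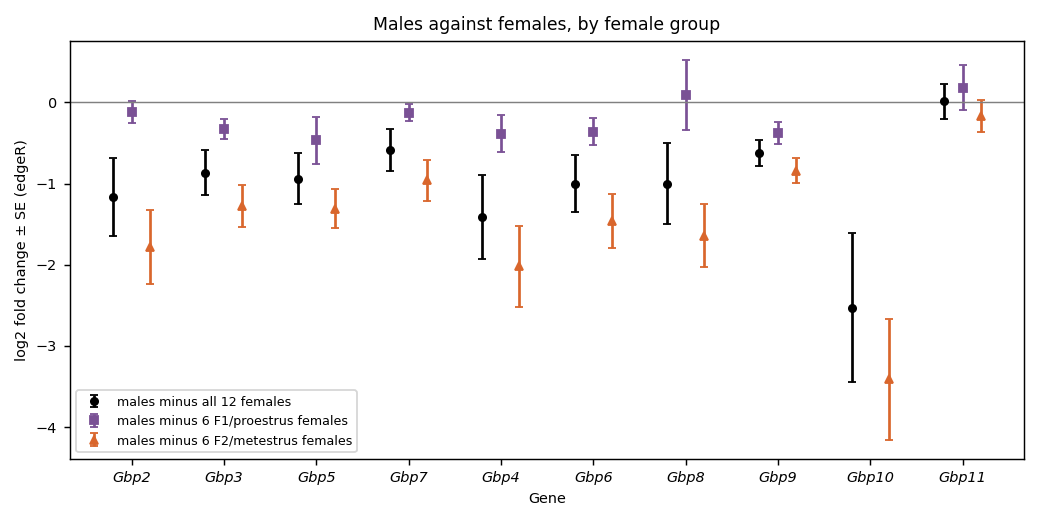
The vertical axis gives the log2 fold change of males minus females with its standard error from edgeR, against all 12 females (circles), F1/proestrus alone (squares) and F2/metestrus alone (triangles). The squares lie between -0.47 and 0.18 and the triangles between -3.41 and -0.17, and *Gbp10* has no square because it did not pass the filter there.

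The difference between the sexes was compared between the 2 series of libraries with an interaction term. *Gbp10* is left out here for the reason given above. None of the other 9 members passed, with adjusted p of 0.97 or more in edgeR, and 0.0% of 26075 genes were called, with 1238 at an unadjusted p under 0.05. The smallest unadjusted p among these 9 was 0.0859, for *Gbp4*, whose log2 difference, male minus female, was -0.52 in replicates 1 to 3 and -2.17 in replicates 4 to 6.

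Whether the members vary together was asked in the 6 males, which did not enter the contrast that chose the family. Across these samples *Gbp7* followed *Gbp2* most closely, with Pearson's r of 0.95 (exact permutation p 0.0139 over 720 pairings, two-sided, adjusted over 9 members 0.125) and Spearman's rho of 0.83 (exact p 0.0583, adjusted 0.262). *Gbp3* had r of 0.80 (exact permutation p 0.0653, adjusted 0.288) while *Gbp10*, with only 0 to 18 counts in these samples, had r of 0.73, given as a description. For *Gbp11*, *Gbp6*, *Gbp8*, *Gbp4*, *Gbp5* and *Gbp9* r was 0.68, 0.64, 0.42, 0.34, 0.15 and 0.15. None of the 8 correlations other than that of *Gbp10* passed after adjustment. Adjusted over these 8 alone, the smallest value was 0.111 for *Gbp7*. Without males 3 and 6, the samples farthest from the median of *Gbp2*, r was 0.65 for *Gbp7* and 0.74 for *Gbp3* over 4 samples, where the smallest exact p is 0.0833, so no relation can pass there. On the same 4 samples r was 0.79 for *Gbp11*, 0.65 for *Gbp10* and *Gbp4*, 0.50 for *Gbp6*, 0.36 for *Gbp8*, -0.56 for *Gbp5* and -0.55 for *Gbp9*.

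The genes most like the family were sought by Spearman's rho over the 18 samples between each gene and the mean centred log2 CPM of the members, as a description with no p, since the samples share libraries and F2/metestrus 2, 4 and 5 stand apart. The median rho over the genes was -0.02. The highest was 0.95 for *Gm43302*, which shares exons with *Gbp10* and *Gbp6*. The immunity-related GTPases (IRGs), smaller interferon-induced GTPases that act with GBPs on microbial vacuoles, supplied 5 more of the 10: *Iigp1* (0.89), *Gm12250*, also called Irgb10 (0.89), *Irgm2* (0.85), and the close copies *Tgtp2* and *Tgtp1* (0.85 each). *Iigp1* had 6.31 to 12.6 CPM in F2/metestrus 2, 4 and 5 and 0.833 to 2.05 CPM in the other 15 samples, and *Gm12250* had 2.11 to 4.64 CPM against 0.122 to 0.462. The others were *Phf11d* (0.87), *Sp100* (0.87), which encodes a nuclear body protein, *Parp9* (0.84) and *Il33* (0.84), which encodes a cytokine of the IL-1 family. *Il33* varied little, from 142 to 197 CPM in the 15 samples and from 189 to 212 CPM in F2/metestrus 2, 4 and 5.

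Other genes of the interferon pathway were described by fixed lists. The 7 IRGs resembled the members, with a median log2 difference of 1.26 between the female groups and -1.07 between the sexes, and with 7 of 7 above the other 15 samples in F2/metestrus 2, 4 and 5. *Irgm1* had the highest level at 21.2 CPM over all samples and differed by 0.41 (SE 0.146) between the female groups, *Tgtp1* differed most there at 2.22 (SE 0.614), and *Tgtp2* differed most between the sexes at -1.83 (SE 0.615, adjusted p 0.324 in edgeR). Summed over the list, IRGs took 71.6 to 113 CPM in F2/metestrus 2, 4 and 5 and 29.6 to 43.1 CPM elsewhere. No IRG passed the threshold in either contrast.

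The IFN-γ signalling list had medians near 0. The transcript of the ligand, *Ifng*, had at most 2 counts in any sample. The median log2 difference of the 12 tested genes of IFN-γ signalling was 0.04 between the female groups and -0.13 between the sexes. *Jak1*, a kinase of the receptor and the list's most abundant gene at 270.0 CPM, differed by 0.03 (SE 0.0732) between the female groups. *Nlrc5*, the transactivator of MHC class I genes, had the largest values of the list, 1.10 (SE 0.351) between the female groups and -0.50 (SE 0.393, adjusted p 0.683 in edgeR) between the sexes. Only *Irf1* and *Nlrc5* of the 12 had F2/metestrus 2, 4 and 5 above the other 15 samples.

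Among the 15 tested other targets of IFN-γ, the medians were 0.22 between the female groups and -0.16 between the sexes. *Cxcl10*, a chemokine for activated T cells, differed most in both contrasts, at 2.30 (SE 0.892) and -1.99 (SE 0.881, adjusted p 0.481 in edgeR). Its counts were low and uneven, from 2 to 379. It had 0.231 to 4.81 CPM in F2/metestrus 2, 4 and 5 and 0.0206 to 0.704 CPM elsewhere, with an F2/metestrus mean of 1.19 ± 1.84 CPM (SD). *B2m*, the light chain of MHC class I, was the most abundant at 78.8 CPM and differed by 0.30 (SE 0.150) and -0.08 (SE 0.137). *Psmb8*, *Psmb9*, *Tap1*, *Cd274* and *B2m* had F2/metestrus 2, 4 and 5 on top. Among the 25 tested type I interferon-stimulated genes the medians were 0.18 and -0.36, and 2 genes, *Oas2* and *Zbp1*, had these samples on top. *Zbp1*, a sensor of nucleic acids, differed most at 1.45 (SE 0.542) and -1.42 (SE 0.540, adjusted p 0.391 in edgeR), and *Cmpk2*, the most abundant at 51.2 CPM, at 0.06 (SE 0.0619) and -0.10 (SE 0.0528).

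Inflammasome genes, on which GBPs act, had medians near 0. They were 0.01 between the female groups (7 genes tested) and 0.0 between the sexes (8 genes tested), and no gene had F2/metestrus 2, 4 and 5 on top. *Il18* was the most abundant at 17.1 CPM, *Aim2* differed most between the female groups at 0.30 (SE 0.184) and *Il1b* most between the sexes at 0.79 (SE 0.549, adjusted p 0.642 in edgeR). Of the relatives outside the members, *Atl1*, an atlastin GTPase of the endoplasmic reticulum, had 135 CPM and a difference of 0.02 (SE 0.0437) between the female groups. *Gvin1*, a very large inducible GTPase, differed by 0.40 (SE 0.302) and -0.68 (SE 0.279, adjusted p 0.431 in edgeR). *Gbp2b*, the neighbour of *Gbp2* on chromosome 3, did not pass the filter, and had 0.888 CPM in F2/metestrus 5, 0.336 in F2/metestrus 2, 0.200 in male 1 and at most 0.054 CPM in the other samples. None of the genes in these pathway lists was called in either contrast with edgeR, where the unadjusted p was under 0.05 for 21 of the 70 genes fitted between the female groups and 23 of the 71 fitted between the sexes. Over all genes tested that share was 2.48% and 9.72%, and nothing is read from the lists' counts. DESeq2 called 0 and 1, *Ifi44*, which was named after its value was seen.

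**Figure D5:**
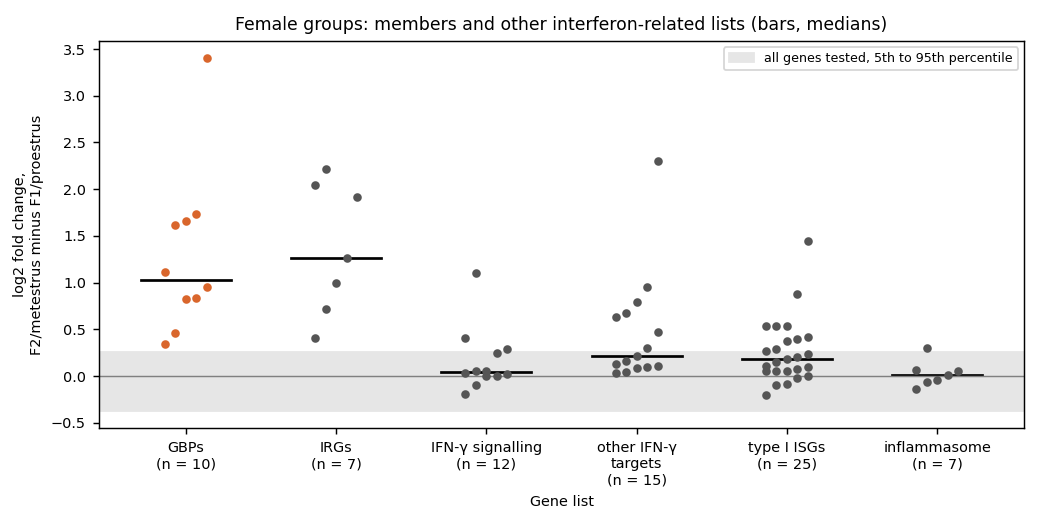
Points are the log2 fold changes of single genes, F2/metestrus minus F1/proestrus, black bars are medians, and the grey band holds the 5th to 95th percentile of all 24042 genes tested (-0.37 to 0.26). Members and IRGs, with medians of 1.03 and 1.26, lie above the band, and the medians of the other lists lie inside it.

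Markers of the cell types that bulk DHSC can hold were set beside the members. In bulk samples, a change in the number of cells of a type and a change in RNA per cell cannot be told apart. The 7 genes of the T or NK cell list summed to 0.787 to 0.961 CPM in F2/metestrus 2, 4 and 5 and to 0.28 to 0.645 CPM in the other 15 samples. Spearman's rho of this sum with the mean profile of the members was 0.41. Levels were very low. Only *Cd3e* and *Nkg7* passed the filter, and *Cd3d* and *Cd8a* were at 0 in at least 1 of the 3 samples. *Nkg7* had 0.221 to 0.418 CPM in the 3 samples against at most 0.175 CPM elsewhere. No other gene of the list set the 3 samples apart. *Cd3e* had 0.221 to 0.264 CPM there against up to 0.264 elsewhere, *Gzmb* 0.0192 to 0.127 against up to 0.134, and *Klrb1c* 0.0192 to 0.0634 against up to 0.163. The part of T or NK cells in the members' values was not tested. Microglial markers summed to 326 to 349 CPM in F2/metestrus 2, 4 and 5 and to 301 to 370 CPM in the others, endothelial markers to 172 to 181 against 152 to 197, astrocyte markers to 3000 to 3070 against 2770 to 3620, and monocyte or macrophage markers to 41.9 to 58.8 against 31.7 to 72.3 CPM, so these lists did not set the 3 samples apart. Neutrophil markers summed to 5.02 to 8.17 CPM in the 3 samples and to 1.78 to 25.8 CPM in the others, with the highest sum in a male.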

How the data were processed

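The authors deposited raw counts per gene, made from reads mapped to mm10 with Subread and assigned with featureCounts, as the paper's methods and the submitters' processing notes state. The notes give Subread 2.0.3 and the paper's methods another version. The labels name SMART-Seq with Nextera XT libraries and the paper a TruSeq kit, so the version and the library preparation are not settled. A deposited table of DESeq2 results for the authors' own comparison was used only to pair gene IDs with symbols. The members, lists and tests were chosen with earlier results of these data known. Genes were filtered with filterByExpr in edgeR 4.0.16 (R 4.3.3, minimum count 10, minimum total 15), scaled by TMM, and compared by quasi-likelihood F-tests at an FDR of 5%. Each standard error was obtained from the fold change and the F statistic (|log2 fold change| / √F). CPM used TMM library sizes, and log2 CPM a prior count of 2. DESeq2 1.42.0, which the paper's methods name, was an alternative, and between the sexes it replaced 149 outlying counts, 3 of them in members. On simulated counts with a 2-fold change, the test recovered 157 of 197 genes between the sexes (24540 genes, 8 false calls) and 158 of 192 between the female groups (23752 genes, 7 false calls). The changed genes were drawn at random and no sample was made to stand apart. These shares therefore do not give the recovery for the members, in which F2/metestrus 2, 4 and 5 stood apart. Named genes were all 10 members and genes overlapping them, the 10 others with the highest correlation with the member mean, and, for each pathway list, the most abundant gene and whichever gene changed most in either contrast. *Xlr3a*, *Ifi44*, the called marker genes and the genes that had F2/metestrus 2, 4 and 5 on top were named after their values were seen. The labels number samples 1 to 6 in each group without naming animals, so p-values measure the spread between these samples. The alternatives were another tool, scaling, filter, samples and covariates.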

Additional observations from a re-analysis of the deposited data

Results flagged for a closer look

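In 1 of the 30 sets of 6 values (10 genes in 3 groups), 1 sample lay far from the others: *Gbp4* in F2/metestrus 4, at 15.2 CPM, where the next sample had 4.59 CPM. Its gap to the next sample was 0.769 of the range of the group, above the critical value of Dixon's test for 6 samples. Chance sets apart about 1 in 20 such sets.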

How the results depend on the processing

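Between the sexes 49 genes passed the threshold, and 0 members. DESeq2 called 167 genes and 1 member, *Gbp9*, or 154 genes and the same member with no replacement of outlying counts (chosen after seeing the data), and the replicate block gave 112 genes, the series of libraries as covariate 133, replicates 1 to 3 alone 16, replicates 4 to 6 alone 13, F1/proestrus females alone 13, F2/metestrus females alone 22, and leaving out F2/metestrus 2, 4 and 5 (chosen after seeing the data) 30. Leaving out each sample in turn gave 25 to 77 genes, with 77 without F1/proestrus 5, 30 without male 4 and 25 without male 5, and 0 members throughout. Some of these fits had fewer samples, and the causes of the different counts were not tested. Same-numbered samples did not pair beyond their series of libraries. Their 18 correlations ran from -0.105 to 0.228, with 9 over 0.1, and 7 of 18 samples correlated best with their own number. The mean was 0.0854 for the same number, 0.0962 for another number of the same series, and -0.0166 for other numbers. The replicate block and the series of libraries as covariate each called 0 members. Of the members' differences, *Gbp8* turned to 0.09 against F1/proestrus alone. *Gbp11*, at 0.01, turned to 0.0 with DESeq2 (with or without replacement), with RLE size factors and with the replicate block, to -0.01 in replicates 1 to 3, to -0.17 against F2/metestrus alone, and ran from -0.12 to 0.08 when single samples were left out (-0.12 without male 1, -0.1 without male 3, -0.06 without F1/proestrus 4 or 6, -0.03 without F1/proestrus 5, -0.02 without F1/proestrus 2 or F2/metestrus 6, -0.01 without F2/metestrus 4). Among males the correlations of *Gbp5* and *Gbp9* with *Gbp2* turned to -0.56 and -0.55 without 2 samples. Without F2/metestrus 5 the difference of *Gbp2* between the sexes was -0.71 and between the female groups 1.07, and without F2/metestrus 4 that of *Gbp4* was -0.78 and 0.76. Between the female groups the difference of *Gbp6* went from 1.11 to 0.71 without F2/metestrus 5. That of *Gbp11* went from 0.34 to 0.53 without F1/proestrus 1. Depth limits *Gbp8* and *Gbp10*, which had under 25 counts in each male and F1/proestrus sample.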
